A study of Mus musculus with 8 samples.

Results

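Zfhx3, also called Atbf1, encodes a very large transcription factor with many zinc fingers and several homeodomains. It was first described as a protein that binds an AT-rich element of the Afp enhancer, and it is known for roles in neuronal differentiation and in the circadian clock of the suprachiasmatic nucleus. The gene was selected on measured values. It was chosen by its fall in bp covered by 5hmC peaks from the shGFP to the shSuz12 library, so the values of that contrast are a description here and support nothing. It is 1 gene of 22367 protein-coding genes on the nuclear chromosomes. Over whole gene spans its fall of 65015 bp was the third largest. Gm20388, with a fall of 502223 bp over a span of 4434882 bp, and Fgfr2, with 70444 bp over 3009069 bp, lost more, so Zfhx3 has the largest fall only apart from these annotated spans of several megabases. Just below it were Msi2 (43279 bp), Rnf220 (39815 bp), Dnahc8 (38799 bp), Tiam1 (38432 bp) and Sipa1l3 (37306 bp).

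5-hydroxymethylcytosine (5hmC) is made by the TET enzymes, which oxidise 5-methylcytosine, mostly at CpG sites. Suz12 is a core subunit of the Polycomb complex PRC2, which methylates histone H3 at repressed developmental genes in ESCs. The study mapped 5hmC in 6 conditions to compare ESCs with differentiated cells and to ask what knockdown of Suz12 does to 5hmC. In GLIB-Seq each 5hmC receives a glucose, periodate opens the sugar, biotin is coupled to it, and the pulled-down fragments are sequenced. The ESC library came from the E14 line of mouse ESCs. The MEF library came from fibroblasts of C57BL/6 embryos, of embryonic day 11 in the sample labels and of a later day in the methods. Brain and Liver were taken from adult C57BL/6 mice of 8 weeks, and in such whole organs a change in the mix of cells and a change in 5hmC per cell cannot be told apart. The shGFP and shSuz12 libraries came from E14 cells transfected with a short hairpin against GFP, the control, or against Suz12, and selected with puromycin. Which Suz12 hairpin was used is not named for this library, and the level of Suz12 in these cells was not analysed here. There is 1 library per condition, so no spread between replicates and no test between conditions can be given. The lists hold peaks without read counts, so the depth of each library is unknown.

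The gene (ENSMUSG00000038872.7) lies on the plus strand of chromosome 8 at chr8:111238544-111485521 in mm9, a span of 246978 bp. The annotation gives it 1 transcript with 10 exons (16424 bp) and 9 introns (230554 bp), and 11169 bp are coding. With 50 kb on each side the window measured 346978 bp. The gene span met 107 peaks in ESC, 102 in MEF, 71 in Brain, 91 in Liver, 104 in shGFP and 92 in shSuz12. In the whole window there were 121, 124, 84, 104, 119 and 106 peaks, in the same order. The peaks covered 157793 bp of the gene in ESC, 162902 bp in MEF, 105484 bp in Brain, 173597 bp in Liver, 135743 bp in shGFP and 70728 bp in shSuz12. Liver was thus the highest and shSuz12 the lowest, with MEF, ESC, shGFP and Brain between them in falling order. Without replicates it cannot be said which neighbours in this order differ.

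**Figure D1:**
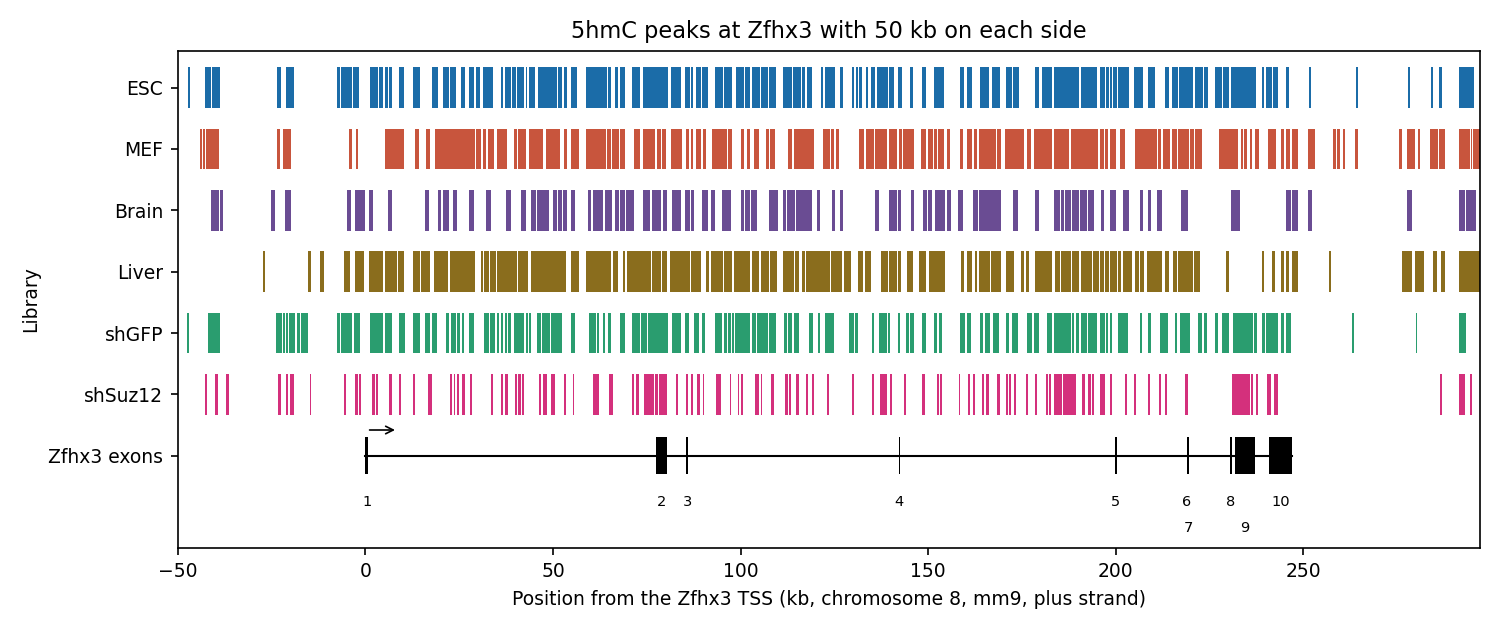
Peaks of each library (coloured boxes, 1 row per library) along the Zfhx3 window, against position from the TSS in kb, with the exons numbered below and the arrow showing the direction of transcription. Boxes are to scale, except that exons shorter than the line width are drawn as thin lines. Peaks run through the gene in all 6 libraries and thin out in the flanks, and shSuz12, with 70728 bp covered in the gene, has the narrowest boxes.

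As a share of the gene, the covered bp came to 63.9% in ESC, 66.0% in MEF, 42.7% in Brain, 70.3% in Liver, 55.0% in shGFP and 28.6% in shSuz12. Over chromosome 8 the share was 13.8, 9.23, 8.84, 7.60, 8.94 and 6.32%, respectively, and over all autosomes 7.23, 8.39, 7.88, 6.86, 4.89 and 3.37%. Zfhx3 was therefore covered several times more densely than its chromosome in every library. The ratio of the gene to chromosome 8 was 4.64 in ESC, 7.15 in MEF, 4.83 in Brain, 9.25 in Liver, 6.15 in shGFP and 4.54 in shSuz12. Chromosome 8 itself was denser than the autosomes by 1.90 times in ESC, 1.83 times in shGFP and 1.88 times in shSuz12, but by 1.10 to 1.12 times in MEF, Brain and Liver. The 3 libraries of E14 cells thus share a dense chromosome 8, and its part in the level at Zfhx3 was not tested. Divided by all autosomes in place of chromosome 8, the ratio was 8.83 in ESC, 11.2 in shGFP and 8.50 in shSuz12, each more than 1.5 times its value against chromosome 8.

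Zfhx3 passed a level of 2 times its own chromosome in all 6 libraries. Among 13506 protein-coding genes of at least 10 kb, 44.3% passed it in ESC, 26.2% in MEF, 38.8% in Brain, 42.8% in Liver, 39.2% in shGFP and 41.2% in shSuz12. Passing that level is common, so its rank is given too. Among 4841 protein-coding genes of at least 50 kb, Zfhx3 ranked 34 in ESC, 10 in MEF, 338 in Brain, 104 in Liver, 10 in shGFP and 50 in shSuz12 by share of the span covered. With each share divided by that of the gene's own chromosome, the ranks were 471, 45, 471, 194, 210 and 433, respectively. The rank of Zfhx3 thus depends on the scaling in all 6 libraries and fell most in the libraries of E14 cells, where chromosome 8 was dense. The median gene of that size was covered over 6.55, 8.91, 10.6, 5.44, 3.96 and 3.29% of its span, respectively. Of the 198 such genes on chromosome 8, Zfhx3 was the highest in MEF and ranked 12 in ESC, 30 in Brain, 10 in Liver, 5 in shGFP and 17 in shSuz12. The lowest share of Zfhx3 was 28.6%, in shSuz12, a library of the contrast that chose the gene. Without scaling by chromosome, 35 of the 4841 genes reached that share in each of the 6 libraries, with Zfhx3 included by construction. By share of the span alone, its lowest rank was in Brain, but after division by the own chromosome ESC and Brain were level.

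**Figure D2:**
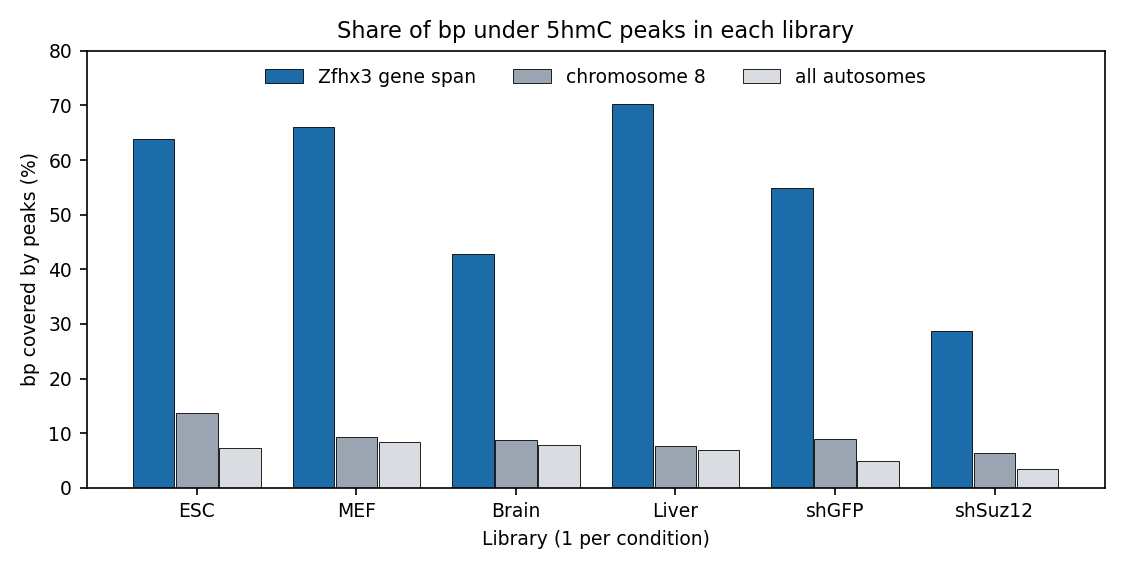
Percent of bp under peaks in each library (1 per condition), for the Zfhx3 gene span, chromosome 8 and all autosomes. The Zfhx3 bars run from 28.6% in shSuz12 to 70.3% in Liver, and each stands above both background bars of its library.

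Zfhx3 peaks were wide in most libraries. Their median width was 1201 bp in ESC, 1075 bp in MEF, 1277 bp in Brain, 1689 bp in Liver, 1001 bp in shGFP and 591 bp in shSuz12, beside 918, 839, 1081, 1050, 834 and 584 bp over all peaks of chromosome 8. Liver had the widest peaks at the gene and shSuz12 the narrowest, and the shSuz12 peaks were narrow along all of chromosome 8 too. The score of a peak, a multiple of the negative log10 of its p-value, had a median of 342 in ESC, 97.2 in MEF, 60.5 in Brain, 352.5 in Liver, 138 in shGFP and 54.2 in shSuz12. The lists start at different scores, with a lowest score of 80 in ESC and Liver, 30 in MEF and Brain, 50.02 in shGFP and 30.3 in shSuz12. A score also grows with depth, so the medians are not levels of 5hmC. At a common score of at least 80, the peaks left covered 63.9% of the gene in ESC, 51.6% in MEF, 20.7% in Brain, 70.3% in Liver, 47.9% in shGFP and 14.0% in shSuz12. Liver and ESC then stood highest, and Brain and shSuz12 were again the lowest.

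The TSS was bare. Exon 1, which is 687 bp long, non-coding and rich in CpG (11.1 per 100 bp, with a GC content of 72.9%), was at 0% in all 6 libraries. A stretch of 1003 bp from 93 bp before the TSS to 909 bp after it carried no peak in any library, with 91 CpGs. Downstream, the nearest peak began 1340 bp after the TSS in ESC, 5273 bp in MEF, 910 bp in Brain, 924 bp in Liver, 1329 bp in shGFP and 1686 bp in shSuz12. Upstream, the nearest peak ended 1713 bp before the TSS in ESC, 1951 bp in MEF, 94 bp in Brain, 342 bp in Liver, 1533 bp in shGFP and 1300 bp in shSuz12. Within 1 kb of the TSS, peaks covered 998 bp in Brain and 736 bp in Liver but 0 bp in the other libraries. The Liver peaks there scored 629 and 1116. The Brain peaks scored 68.9 and 52.4, under the lowest score of 80 in the ESC and Liver lists, so at that common score Brain too was at 0 bp, and only Liver had peaks within 1 kb. Each of the 6 lists had a peak upstream of the TSS within 3 kb, and the ESC one scored 603, the MEF one 82.7 and the shGFP one 394.

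Exons and introns differed between the libraries. The share of exonic bp covered was 73.0% in ESC, 57.7% in MEF, 36.4% in Brain, 39.9% in Liver, 82.5% in shGFP and 56.3% in shSuz12. The share of intronic bp was 63.2, 66.5, 43.2, 72.5, 53.0 and 26.7%, respectively. By these values exons were covered more densely than introns in the ESC-derived libraries, by 1.15 times in ESC, 1.56 times in shGFP and 2.11 times in shSuz12, and less densely in MEF (0.867), Brain (0.842) and Liver (0.551). The 95% intervals for counting error, scaled from the exact interval of the share of peaks that touch an exon, included 1 in ESC (0.537 to 2.11), MEF (0.499 to 1.36), Brain (0.373 to 1.57) and shGFP (0.725 to 2.84), and did not in Liver (0.271 to 0.967) and shSuz12 (1.04 to 3.70). Over all protein-coding genes the same ratio was 2.56 in ESC, 1.18 in MEF, 1.65 in Brain, 1.85 in Liver, 2.67 in shGFP and 2.58 in shSuz12, so that Zfhx3, counted in this way, was below the genome's value in each library. The intervals above include the genome's value in MEF, shGFP and shSuz12, and lie below it in ESC, Brain and Liver. They rest on 8 to 15 peaks that touch an exon, and they treat neighbouring peaks as independent. They do not measure the spread of a ratio of covered bp, so the comparisons with 1 and with the genome are no tests. The shSuz12 library also belongs to the contrast that chose the gene. In shSuz12 other countings gave 1.71 (peak midpoints), 2.23 (equal numbers of peaks), 2.82 (the higher-scoring 50%), 2.87 (coding parts only) and 3.16 (a score of at least 80), for which no genome value was computed. These ratios depend on how exons and peaks are counted. Counted by peak midpoints per bp, the ratio was 0.688 in ESC and 1.54 in MEF, on the other side of 1, and 1.01 in shGFP, which leaves almost no difference. With coding parts only it was 1.0 in MEF, and with a score of at least 80 it was 0.227 in MEF. In Liver it was 0.339 with the higher-scoring 50% of each list, further from 1, but 0.826 by peak midpoints, nearer to 1.

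The coding sequence was covered over 95.7% in ESC, 66.8% in MEF, 41.2% in Brain, 40.4% in Liver, 96.8% in shGFP and 76.6% in shSuz12. Most of the exonic bp lie in exons 2, 9 and 10. Exon 2, of 2768 bp, was covered over 100% in ESC, 73.5% in MEF, 77.3% in Brain, 91.5% in Liver, 100% in shGFP and 94.3% in shSuz12, and was therefore high in all 6 libraries with all peaks. The highest MEF score over exon 2 was 76.31, so at the common score of at least 80 the exon was bare in MEF. A Brain peak over it, with a score of 41.27, is lost at that score too. Of the 2 shSuz12 peaks over exon 2 (median score 155.1, highest 246.91), the lower is also under 80 and is lost. Exon 9, of 5454 bp and wholly coding, was covered over 100% in ESC, 46.4% in MEF, 28.0% in Brain, 0% in Liver, 97.4% in shGFP and 81.1% in shSuz12. The ESC-derived libraries were high over exon 9, whereas Liver, which was the densest library over the gene as a whole, had no peak there. At the common score of at least 80, the MEF peaks over exon 9 that scored 34.77, 36.09 and 41.82 are lost. A shGFP peak with a score of 65.53 is lost as well. The 3 shSuz12 peaks there had a median score of 57.7, also below 80, and a highest score of 621. Exon 10, of 6240 bp with the end of the coding sequence and the 3′ untranslated part, was covered over 41.5, 58.2, 21.3, 45.7, 70.5 and 25.7% in the same order.

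The short coding exons were either wholly covered or bare in most libraries. Exon 6 was at 100% in all 6 libraries, and exon 3 was at 100% in all but shSuz12 (58.6%). Exon 4 was at 100% in 5 libraries and at 0% in shSuz12. The peaks over exon 4 scored 52.91 in MEF, 33.23 in Brain and 72.16 in shGFP. At the common score of at least 80, exon 4 was thus covered in ESC and Liver only, and shGFP and shSuz12 did not differ there. Those over exon 3 scored 61.52 in MEF, 76.44 in Brain and 73.45 in shSuz12, also below that score. Exon 5 was at 100% in ESC, MEF, Brain and Liver and at 0% in both shGFP and shSuz12, so both libraries of transfected cells lack it. Exon 8 was under a peak in MEF only, a peak of 5015 bp with a score of 661 that runs from intron 7 to exon 9.

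The 4 longest introns hold most of the gene. Intron 1, of 76871 bp, was covered over 64.3% in ESC, 68.2% in MEF, 43.6% in Brain, 82.7% in Liver, 58.1% in shGFP and 28.3% in shSuz12. Intron 3, of 56030 bp, was covered over 65.1, 58.1, 45.4, 75.0, 52.2 and 25.1%, and intron 4, of 57568 bp, over 59.6, 74.3, 52.1, 67.4, 51.7 and 33.9%. Liver was the highest in introns 1 and 3, and MEF in intron 4. Intron 5, of 18902 bp, was covered over 62.2, 73.9, 34.7, 72.7, 44.4 and 17.7%. Intron 7, of 11092 bp, stood apart, with 70.4% in ESC, 56.2% in MEF, 34.7% in Liver and 42.4% in shGFP but 0% in Brain and in shSuz12. The miRNA gene AC127258.1, the other annotated gene of the window, lies in intron 7, and its 79 bp were wholly under peaks in ESC, MEF, Liver and shGFP and bare in Brain and shSuz12.

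**Figure D3:**
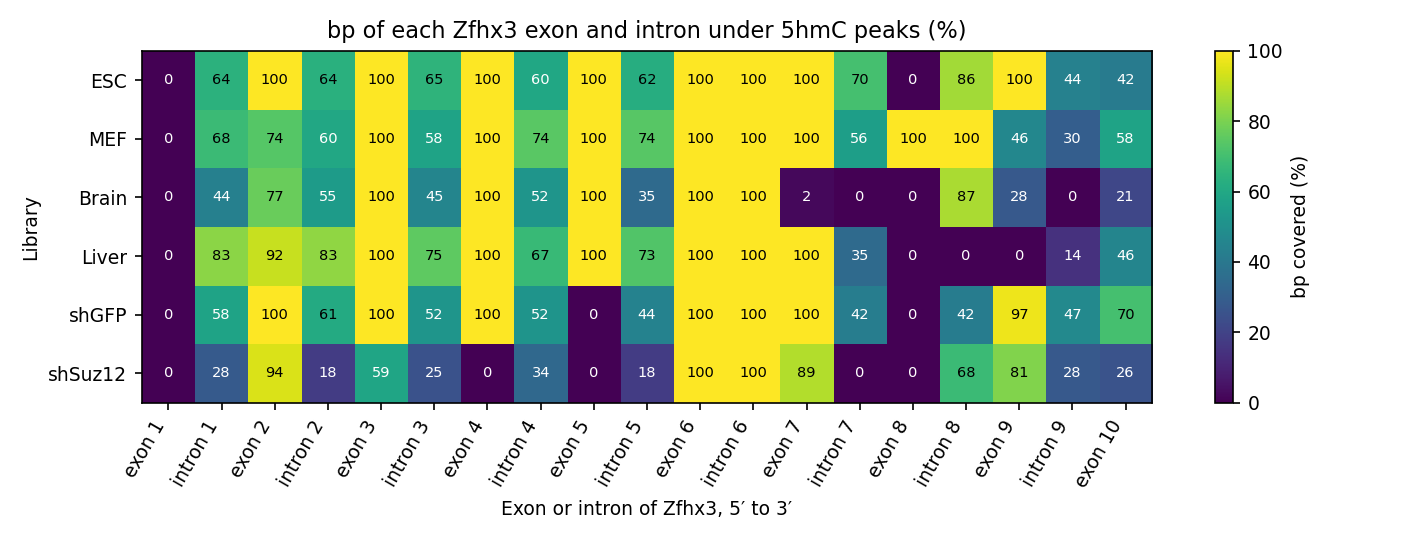
Percent of bp under peaks in each exon and intron of Zfhx3, from 5′ to 3′, in each library, with the value written in each cell. Exon 1 is at 0% in every library, exon 6 at 100% in every library, and exon 9 runs from 0% in Liver to 100% in ESC.

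The flanks were covered less than the gene in every library. The 50 kb upstream were covered over 26.0% in ESC, 17.7% in MEF, 18.1% in Brain, 12.7% in Liver, 31.8% in shGFP and 13.7% in shSuz12. The 50 kb downstream were covered over 14.5, 36.7, 16.7, 30.2, 5.65 and 5.47%, respectively. The ESC-derived libraries and, by a small margin, Brain were higher upstream than downstream, and MEF and Liver were higher downstream.

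The strongest peaks fell at a few places. In ESC 2 peaks had a score of 3100, a value that 263 peaks of that list share, and they lay over exon 2 (chr8:111312584-111319234, 6651 bp) and over exon 9 (chr8:111469788-111475887, 6100 bp). The highest shGFP peak, with a score of 2286, lay over exon 9 (chr8:111469752-111475186), and the highest shSuz12 peak, with 621, lay there too (chr8:111470067-111473516). The 3 highest peaks of ESC, of shGFP and of shSuz12 were at the same 3 places, exon 2, exon 9 and a site in intron 4 about 184 kb from the TSS, and the third highest MEF peak (chr8:111421998-111425936, score 858) lay at that intron 4 site as well. The strongest MEF peak, with a score of 996, was in intron 4 (chr8:111429005-111433298). The strongest Brain peak, with 228, was in intron 4 too (chr8:111401937-111406526). The strongest Liver peak, with 2099, was in intron 1 (chr8:111297209-111304065), and the second MEF peak, with 971, overlapped it. MEF, Brain and Liver thus had their highest scores in introns and not over exon 9.

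Peaks of the 4 cell types mostly lay over each other at Zfhx3. Of the ESC peaks, 7.48% met no MEF peak, 31.8% no Brain peak and 12.1% no Liver peak, whereas over chromosome 8 these shares were 55.7, 58.8 and 65.6%. In the other direction, 11.8% of the MEF peaks, 9.86% of the Brain peaks and 15.4% of the Liver peaks met no ESC peak, beside 41.5, 32.8 and 31.9% over chromosome 8. A gene that is covered so densely must share many peaks, so these shares describe the gene and were not tested. Of the gene span, 25.8% was covered in all 4 cell types and 11.8% in none. Bp covered in 1 cell type alone came to 4.0% of the gene for ESC, 3.01% for MEF, 1.19% for Brain and 5.15% for Liver. Over all 6 libraries, 10.3% of the gene, or 25525 bp in 58 segments, was covered in each list, and another 10.3%, or 25503 bp, in none.

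From shGFP to shSuz12, the contrast that chose the gene, covered bp fell from 135743 to 70728, a ratio of 0.521. The same ratio was 0.706 over chromosome 8 and 0.689 over all covered bp, so the shSuz12 list covered fewer bp in total, and divided by that of chromosome 8 the ratio at Zfhx3 was 0.738. A fall of at least 2-fold was seen in 28.8% of the 11212 protein-coding genes with at least 1000 bp in shGFP, and Zfhx3, at 1.92-fold, was not among them. With equal numbers of peaks the ratio was 0.499, past 2-fold, as for 32.3% of genes. With the higher-scoring 50% of each list it was 0.403, also past 2-fold, as for 45.0% of genes. Chromosome 8 was then at 0.632 and Zfhx3 relative to it at 0.638, further below its chromosome than with all peaks. At a score of at least 80 the ratio at Zfhx3 was 0.293, but 85.3% of genes then passed 2-fold, chromosome 8 itself was at 0.329, and Zfhx3 relative to it was at 0.891. The number of peaks at Zfhx3 changed less, at a ratio of 0.885 by midpoint. Over chromosome 8 the number of peaks rose, from 11567 in shGFP to 12683 in shSuz12, as it did over the whole lists, from 132996 to 138705. In ratio, Zfhx3 was not extreme, since 31.5% of those genes, and 19.9% of the 3822 of them of at least 50 kb, had a ratio as low or lower. The median ratio was 0.656 and 0.718 in these 2 sets.

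Bp left the list both with whole peaks and within peaks that still met a shSuz12 peak. In both lists 59201 bp were covered, in shGFP only 76542 bp and in shSuz12 only 11527 bp. Of the bp covered in shGFP only, 51123 (66.8%) lay in peaks that met a shSuz12 peak by at least 1 bp, and 25419 lay in peaks that met none. Of the 104 shGFP peaks, 31 (29.8%, exact Clopper-Pearson 95% interval 21.2 to 39.6%, for counting error only) met no shSuz12 peak, beside 39.3% over chromosome 8 and 49.5% over all peaks. That share was 60.3% at a score of at least 80 (67.3% over chromosome 8), 51.9% when both lists start at the lowest shGFP score (54.7% over chromosome 8), and 65.4% when the overlap had to reach 50% of the shGFP peak (54.3% over chromosome 8). With the higher-scoring 50% of each list it was 43.2% (42.6% over chromosome 8). Zfhx3 was thus below its chromosome with all peaks and at these common scores, nearly level with the higher-scoring 50%, and above it by the stricter overlap. With all peaks, the interval of 21.2 to 39.6% includes the 39.3% of chromosome 8, but this is no test. The peaks are neighbours within 1 gene and 1 library, and this contrast chose the gene. The 31 peaks were narrow and weak, with a median width of 671 bp and a median score of 74.2, against 1318 bp and 182 for the 73 others. The 73 kept a median of 48.7% of their bp under shSuz12 peaks, with a range from 1.96 to 100%. Of the 92 shSuz12 peaks, 84 met a shGFP peak and 8 (8.70%) did not, beside 35.0% without one over chromosome 8. The ESC library covered 80.4% of the bp seen in shGFP only, beside 87.1% of all shGFP bp of the gene and 63.9% of the whole gene.

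**Figure D4:**
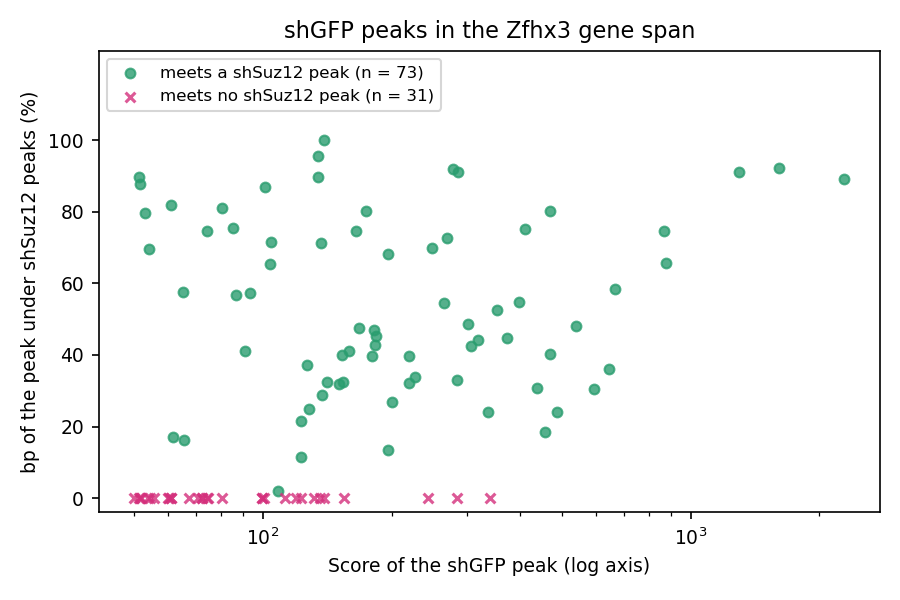
Each point is 1 of the 104 shGFP peaks of the Zfhx3 gene span, by its score (log axis) and the percent of its bp under shSuz12 peaks. The 31 peaks that meet no shSuz12 peak (crosses, at 0%) have scores of 50.1 to 339, and the 3 peaks with the highest scores keep most of their bp.

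By segment, the fall was seen along the gene. Intron 1 went from 44635 to 21772 bp, intron 3 from 29232 to 14037 bp and intron 4 from 29739 to 19501 bp, ratios of 0.488, 0.480 and 0.656. Intron 5 had a ratio of 0.398, and intron 7 went from 4700 bp to 0 bp. Exon 2 had a ratio of 0.943 and exon 9 of 0.833, but both were at or near full cover in shGFP under very wide peaks. The highest score over exon 2 went from 1606 to 247 and that over exon 9 from 2286 to 621. Exon 10 went from 4402 to 1603 bp, a ratio of 0.364. Intron 8, of 1112 bp, was higher in shSuz12, with 756 bp against 465 bp. In the flanks, the ratio was 0.431 upstream and 0.968 downstream, where both lists held 3 peaks.

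Zfhx3 is richer in CpG than its chromosome, with 1.86 CpGs per 100 bp and a GC content of 49.0%, against 0.904 and 42.4% on chromosome 8. Covered bp held more CpGs than uncovered bp of the gene in each library. Per 100 bp there were 2.13 in covered against 1.39 in uncovered bp in ESC, 2.0 against 1.59 in MEF, 2.09 against 1.69 in Brain, 1.94 against 1.69 in Liver, 2.16 against 1.50 in shGFP and 2.52 against 1.60 in shSuz12. The difference was largest in shSuz12, whose remaining peaks hold the most CpGs per bp. CpG content also bears on how well a fragment is sequenced and pulled down, and its part was not tested.

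Short stretches show what the peaks and the bare start of Zfhx3 look like. They are read from the plus strand of the mm9 reference (NCBIM37), 5′ to 3′, with each CpG, the dinucleotide CG, in capitals. CG reads the same on both strands, and 82.4% of the 300-base windows of chromosome 8 hold at least 1. The segment of Zfhx3 covered in all 6 lists that is longest lies in intron 4 (chr8:111422195-111423588, 1394 bp), and the middle 300 bases, chr8:111422742-111423041, hold 7 CGs, a number that 7.43% of the windows reach. The shGFP peak with the highest score (339) among those that met no shSuz12 peak but met an ESC peak lies in intron 3 (chr8:111339410-111341144), and its middle, chr8:111340128-111340427, holds 5 CGs, a number that 17.1% of the windows reach. The middle of the strongest shSuz12 peak, chr8:111471642-111471941, lies in the coding exon 9 and holds 5 CGs.
Covered in all lists, intron 4: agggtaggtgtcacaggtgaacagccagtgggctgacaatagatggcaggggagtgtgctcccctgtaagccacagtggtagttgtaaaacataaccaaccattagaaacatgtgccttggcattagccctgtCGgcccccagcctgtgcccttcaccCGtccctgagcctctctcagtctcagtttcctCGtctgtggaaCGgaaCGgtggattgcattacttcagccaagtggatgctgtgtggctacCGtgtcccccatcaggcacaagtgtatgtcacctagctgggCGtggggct
shGFP peak without a shSuz12 peak, intron 3: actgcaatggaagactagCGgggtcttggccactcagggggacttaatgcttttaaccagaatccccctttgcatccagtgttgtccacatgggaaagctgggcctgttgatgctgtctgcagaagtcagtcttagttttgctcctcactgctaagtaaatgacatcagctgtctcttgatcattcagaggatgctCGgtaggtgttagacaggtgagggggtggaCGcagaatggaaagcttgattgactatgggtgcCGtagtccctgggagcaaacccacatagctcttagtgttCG
Strongest shSuz12 peak, exon 9: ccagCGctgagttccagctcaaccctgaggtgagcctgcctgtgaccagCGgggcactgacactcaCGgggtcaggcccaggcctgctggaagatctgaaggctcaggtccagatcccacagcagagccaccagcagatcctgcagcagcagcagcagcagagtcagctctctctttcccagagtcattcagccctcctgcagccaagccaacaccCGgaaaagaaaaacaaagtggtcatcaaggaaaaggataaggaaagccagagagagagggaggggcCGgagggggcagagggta

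The promoter is shown because the bare stretch begins in it, and it was added after the values were seen. The 250 bases before the TSS, chr8:111238294-111238543, hold 18 CGs with a GC content of 66.0%. Only 0.441% of the 250-base windows of chromosome 8 hold as many, and 77.8% hold at least 1. The Brain peak reaches over 157 of these bases and the other 5 lists over none. The RefSeq promoter entry of the gene (GRCm38.p6) matches mm9 at this TSS.
Zfhx3 promoter: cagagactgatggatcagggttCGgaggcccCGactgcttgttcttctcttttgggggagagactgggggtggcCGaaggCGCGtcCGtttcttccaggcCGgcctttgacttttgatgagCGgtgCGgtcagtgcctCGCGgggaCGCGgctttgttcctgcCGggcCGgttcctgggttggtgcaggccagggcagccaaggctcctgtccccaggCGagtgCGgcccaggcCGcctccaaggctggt

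Each of 9 relatives among the zinc finger homeobox genes was covered over a smaller share than Zfhx3 in ESC, MEF, Liver, shGFP and shSuz12, whereas in Brain Adnp2 (52.9%) and Zhx2 (48.2%) were higher. Divided by the share of the own chromosome, this order turns in all libraries but MEF. Zfhx2 was then above Zfhx3 in ESC (9.30 against 4.64), Brain (6.48 against 4.83), Liver (12.2 against 9.25), shGFP (12.7 against 6.15) and shSuz12 (6.99 against 4.54). Adnp2 was above it in ESC (5.51), Brain (6.62) and shSuz12 (6.03), and Zhx2 in Brain (5.61). The closest relatives are Zfhx2 and Zfhx4, which share its build of zinc fingers and homeodomains. Zfhx2 was covered over 41.5% in ESC, 6.99% in MEF, 42.7% in Brain, 67.9% in Liver, 39.5% in shGFP and 15.4% in shSuz12. Zfhx4 was covered over 0, 9.11, 2.98, 3.98, 0.342 and 0%, respectively. The 3 paralogs thus differ. Zfhx4 was bare in ESC and shSuz12 and nearly bare in shGFP. In MEF its 9.11% stood beside a median of 8.91% among genes of at least 50 kb. Zfhx2 was near the level of Zfhx3 in Brain and Liver. Over the 9 relatives (Zfhx2, Zfhx4, Zeb1, Zeb2, Zhx1, Zhx2, Zhx3, Adnp and Adnp2), the median share was 6.65% in ESC, 9.39% in MEF, 16.0% in Brain, 25.1% in Liver, 2.46% in shGFP and 6.45% in shSuz12. Of the 6 relatives with at least 1000 bp in shGFP, 4 were lower in shSuz12 and 2 of these fell at least 2-fold, Zfhx2 (12006 to 4682 bp) and Zhx3 (3169 to 1147 bp), beside 83.7% lower and 28.8% at least 2-fold lower among all such genes.

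Among 10 genes tied to Zfhx3 in the literature as partners or targets (Afp, Cdkn1a, Pias3, Runx3, Myb, Pou1f1, Esr1, Vip, Grp and Pdgfrb), the median share covered was 25.1% in ESC, 15.2% in MEF, 16.0% in Brain, 0% in Liver, 15.3% in shGFP and 9.78% in shSuz12. In Liver 6 of the 10 were bare, as were 42.1% of all protein-coding genes. Of the 7 with at least 1000 bp in shGFP, 6 were lower in shSuz12 and 2 of these fell at least 2-fold, beside 83.7% lower and 28.8% at least 2-fold lower among all such genes, so the list does not stand apart. The 2 were Pias3 (5577 to 1365 bp), a SUMO ligase that binds Stat3, and Pdgfrb (10157 to 3702 bp), a receptor of platelet-derived growth factor. Afp, the fetal liver protein whose enhancer gave Zfhx3 its older name, was covered over 9.10% in ESC, 8.22% in MEF, 22.6% in Brain, 17.1% in Liver, 3.90% in shGFP and 3.0% in shSuz12. Vip, a neuropeptide of the suprachiasmatic nucleus, was bare in all 6 libraries. Its span is only 8397 bp, and no share of genes bare in all 6 is given beside it, so this is a description only.

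The genes of at least 50 kb with the pattern most like that of Zfhx3, by the smallest Euclidean distance in percent covered over the 6 libraries, were Tnrc18 (distance 11.4), Rassf3 (13.1), Tpcn1 (17.5), C130039O16Rik (19.2) and Ski (20.4). Tnrc18 was covered over 59.4% in ESC, 66.7% in MEF, 45.8% in Brain, 79.1% in Liver, 52.6% in shGFP and 32.6% in shSuz12. With each share divided by that of its own chromosome, other genes came closest to Zfhx3, namely Actn4 (2.02), Myo10 (2.08), Ppap2b (2.17), Rai14 (2.25) and Sept9 (2.33). None of these genes is on chromosome 8, and no gene was among the closest 5 on both measures.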

How the data were processed

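GLIB-Seq peak lists of 6 libraries (ESC, MEF, Brain, Liver, shGFP and shSuz12) were used; the 2 RNA-Seq libraries were not used here. The authors aligned reads to mm9 with Bowtie 0.12.7, retained unique and non-redundant reads and ran MACS 1.4.1 on each library (versions from the submitters' processing notes). Each deposited peak carries a score written by the authors' MACS run, taken as a multiple of the negative log10 of a p-value. The MACS threshold and input control are not given in the sources used here. Genes came from GENCODE on NCBIM37, which is mm9 under another name, and mitochondrial peaks were left out. Covered bp are bp under at least 1 peak, and an overlap of 1 bp counted as shared. Intervals are exact (Clopper-Pearson, 95%) for counts of peaks, and those for ratios of covered bp are scaled from such counts. Genes were named by a rule: the window's genes, the lists of relatives and of partners and targets, the 5 closest in pattern, the 5 falls next in size, and the 3 highest peaks of each library. The members and lists were chosen with earlier results of these data known. Alternatives were the higher-scoring 50% of each list, a score of at least 80, equal numbers of peaks, other spans, scalings, overlaps and exon counts. The coverage steps were tested on simulated peaks. Calculations ran in Python 3.11.15 (numpy 2.4.6, pandas 2.3.3, scipy 1.17.1) and figures were drawn with matplotlib 3.10.9.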

Additional observations from a re-analysis of the deposited data

How the results depend on the processing

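Of 73 alternative values, 52 lay inside the interval of counting error around the reported value and 21 outside it, and 3 exon-to-intron ratios passed to the other side of 1. For ratios of covered bp these intervals are scaled from counts of peaks, so they do not measure error in covered bp. The gene-to-chromosome ratio stayed above 1 under each alternative. With the higher-scoring 50% of each list it was 9.20 in MEF and 11.4 in Liver, and 43.2% of shGFP peaks met no shSuz12 peak (42.6% over chromosome 8). With a score of at least 80 it was 10.6 in MEF, 6.29 in Brain and 6.26 in shSuz12, the ratio of covered bp from shGFP to shSuz12 was 0.293, the share of shGFP peaks without a shSuz12 peak 60.3% (67.3% over chromosome 8) and the exon-to-intron ratio in MEF 0.227. With both lists starting at the lowest shGFP score, an alternative chosen after seeing the data, the bp ratio was 0.379 and the share 51.9% (54.7% over chromosome 8). With 50 kb on each side the gene-to-chromosome ratio was 3.73 in ESC, 7.40 in Liver and 4.98 in shGFP, and divided by all autosomes it was 8.83 in ESC, 11.2 in shGFP and 8.50 in shSuz12. The bp ratio was 0.885 as a number of peaks and 0.738 divided by that of chromosome 8, below 1 throughout. Genes that fell at least 2-fold numbered 3226 of 11212 with all peaks, but 7809 of 9159 with a score of at least 80 and 7411 of 11212 with both lists starting at the lowest shGFP score. An overlap of 50% of the shGFP peak gave a share of 65.4% (54.3% over chromosome 8). The ratios that passed 1 were the exon-to-intron ratio in ESC (0.688) and MEF (1.54) by peak midpoints and that in MEF with coding parts only, which at 1.0 is barely past it. In each case the cause was not tested. No paired analysis was possible because there is only 1 library for each condition. The shGFP list starts at a score of 50.02 and the shSuz12 list at 30.34, and the part of these starts in the fall was not tested apart from the common scores above. Read counts are not part of the lists, so depth cannot be told apart from differences between conditions.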
